A study of Homo sapiens with 8 samples.

Results

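Respiratory chain mRNAs encoded by both genomes of the cell were compared in HepG2 cells primed on 2D and 3D growth substrates. Members were chosen by gene symbol. They are the protein-coding genes of complexes I to IV and of the ATP synthase (complex V), whose symbols start with MT-ND, MT-CO, MT-CYB, MT-ATP, NDUFA, NDUFB, NDUFC, NDUFS or NDUFV followed by a digit, SDHA to SDHD, UQCR, CYC1, COX4 to COX8 or ATP5, without the NDUFAF assembly factors and ATP5IF1. The symbols gave 102 genes, of which 95 reached 10 counts or more in 2 or more libraries, out of 13943 genes tested and 38032 gene identifiers in all. Of the 95, the mitochondrial genome encodes 13 and the nuclear genome 82.

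HepG2 is a human hepatocellular carcinoma cell line, wild type here only in that no genetic modification of the line is described. A single pool of it was cultured for 8 days on flat tissue culture plastic (2D-primed, 4 libraries) or on Alvetex Strata, a porous polystyrene scaffold (3D-primed, 4 libraries), and then released with trypsin. The scaffold was seeded at a higher density than the flat wells, so that substrate and seeding density cannot be told apart here. Polyadenylated RNA was sequenced to 21599630 to 25019499 counts in the 2D-primed and 22153063 to 27844077 in the 3D-primed libraries, and p-values measure the spread between these libraries, which no source used here ties to separate cultures beyond the word replicate.

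The respiratory chain passes electrons from NADH (complex I) or succinate (complex II) through ubiquinone, complex III and cytochrome c to oxygen at complex IV, and the proton gradient built on the way drives ATP synthesis at complex V. Complexes I, III, IV and V are mosaics, with a few hydrophobic core subunits encoded by mitochondrial DNA and all others encoded in the nucleus and imported, whereas complex II is wholly nuclear. Mitochondrial mRNAs are cut from long polycistronic transcripts of a circular genome, so that several genes share a promoter, while nuclear subunits have promoters of their own. Hepatocytes are rich in mitochondria.

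Parts of the mitochondrial genome are shown where genes overlap, since reads that cover the shared bases can belong to either gene. The values of the genes of each pair are therefore not independent. The sequences are from the GRCh38 reference, 5′ to 3′ on the plus strand, with the shared bases in capitals. MT-ATP8 and MT-ATP6 share 46 bases in chrM:8507-8592, and MT-ND4L and MT-ND4 share 7 bases in chrM:10740-10786.
MT-ATP8 and MT-ATP6: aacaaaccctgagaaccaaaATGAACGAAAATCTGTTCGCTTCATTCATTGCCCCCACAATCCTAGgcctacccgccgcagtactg
MT-ND4L and MT-ND4: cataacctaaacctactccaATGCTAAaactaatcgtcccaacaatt

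Promoters of nuclear members are shown because NRF1, a transcription factor known for activating respiratory genes, binds a palindrome of C and G with T or A near its middle, whose occurrences can be read from the capitals. RefSeq promoter windows (GRCh38.p14, 250 bases before to 50 after the gene start) were found for 65 of the 82 nuclear members. Either strand of the palindrome was present in 15 of them (23.1%), against 6.28% of all 27305 windows of the same length. The sites are shown for 2 members that were lower in 3D-primed cells, SDHA and UQCRC1, and for 3 that were higher, NDUFA11, UQCR11 and ATP5MJ. Each sequence is on the strand of its gene and ends at the last base before the RefSeq start. The GENCODE gene of each of the 5 begins further upstream, so that the sequences of UQCRC1, NDUFA11 and ATP5MJ lie wholly within the annotated genes, and those of SDHA and UQCR11 reach into them with their last bases. Capitals mark the palindrome and, in UQCR11, also the ETS or GABPA letters CCGGAAG.
SDHA, chr5:218140-218319: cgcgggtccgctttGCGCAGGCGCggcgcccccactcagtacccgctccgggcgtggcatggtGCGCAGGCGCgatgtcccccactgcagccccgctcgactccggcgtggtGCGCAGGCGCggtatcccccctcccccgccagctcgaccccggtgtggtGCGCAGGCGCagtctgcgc
UQCRC1, chr3:48609647-48609766: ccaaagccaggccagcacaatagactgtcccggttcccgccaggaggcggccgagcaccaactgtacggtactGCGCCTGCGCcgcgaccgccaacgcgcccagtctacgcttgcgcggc
NDUFA11, chr19:5903791-5903910: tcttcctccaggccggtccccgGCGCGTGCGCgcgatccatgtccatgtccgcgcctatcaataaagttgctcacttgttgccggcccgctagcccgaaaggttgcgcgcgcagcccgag
UQCR11, chr19:1605463-1605582: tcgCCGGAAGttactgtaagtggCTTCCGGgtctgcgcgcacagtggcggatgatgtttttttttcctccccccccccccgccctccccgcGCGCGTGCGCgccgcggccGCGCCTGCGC
ATP5MJ, chr14:103921530-103921649: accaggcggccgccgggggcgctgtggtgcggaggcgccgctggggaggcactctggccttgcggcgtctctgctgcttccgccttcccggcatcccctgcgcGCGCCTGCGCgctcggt

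SDHA held the palindrome 4 times, at 166, 117, 68 and 19 bases before its start. UQCR11 held it at 29 and 10 bases, and UQCRC1, NDUFA11 and ATP5MJ held it once, at 47, 98 and 17 bases. Of the members with the letters, 7 were called higher in 3D-primed cells, 4 lower and 4 not called. Among the 50 without them, 22 were called higher, 10 lower and 18 not called. The shares among all genes tested were 32.4% higher and 31.6% lower, and no difference between these members was tested. By complex, the palindrome was present in 4 of 7 windows of complex III, 2 of 3 of complex II, 4 of 13 of complex V, 5 of 31 of complex I and 0 of 11 of complex IV.

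CCGGAAG was present in 20 windows (30.8%, against 10.7% of all windows). The core letters of the YY1 motif, AAGATGGC, were present in 10 (15.4%, against 3.03%), and the longer YY1 motif that contains them in 4 (6.15%, against 0.916%). Of the 10 members with the core, 5 were called lower, 3 higher and 2 not called. Of the 55 without it, 9 were called lower, 26 higher and 20 not called, against 31.6% lower and 32.4% higher among all genes tested, and no difference between these members was tested. CCAAT was present in 22 windows (33.8%), close to the 35.7% of all windows. These counts describe letters in 1 window per gene.

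mRNAs of the mitochondrial genome were higher in 3D-primed cells across all 4 mosaic complexes, while nuclear mRNAs moved less at the median and in either direction. A gene was called at a Benjamini-Hochberg adjusted p below 0.05 in edgeR's quasi-likelihood test, and log2 fold changes are 3D-primed over 2D-primed. Of the 13 mitochondrial mRNAs, 12 were called higher and 0 lower, with a median log2 fold change of 0.88 (1.84-fold). Of the 82 nuclear mRNAs, 36 were called higher, 17 lower and 29 were not called, with a median of 0.13 (1.09-fold). Across all genes tested, 63.9% were called (32.4% higher and 31.6% lower) and the median was 0.01. All 4 values of a group were apart from the other group for 12 mitochondrial mRNAs, each higher, and for 42 nuclear mRNAs, 31 higher and 11 lower, against 59.8% of all genes tested (30.2% higher and 29.5% lower). The nuclear share called, 64.6%, was close to that background, whereas 92.3% of mitochondrial mRNAs were called, each of them higher. After correcting for GC content and for the length of transcripts, 12 mitochondrial mRNAs were still called higher, and the nuclear split became 30 higher and 26 lower with a median of 0.01. Without 3D-primed replicate 1 the nuclear median was 0.08.

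**Figure D1:**
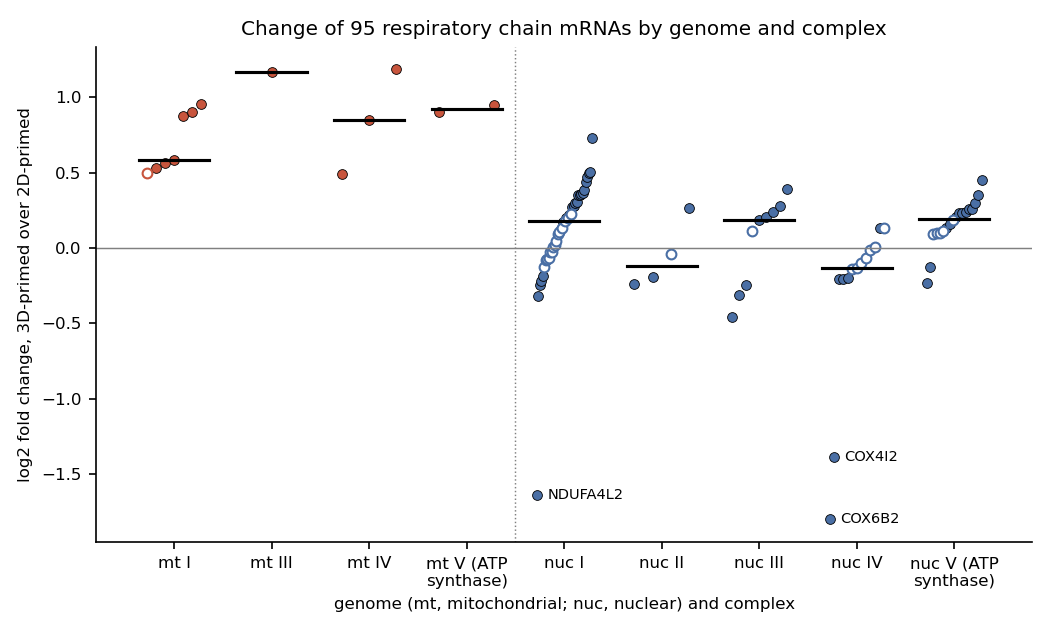
Log2 fold change (3D-primed over 2D-primed, vertical axis) of the 95 members by genome and complex; each point is 1 gene, filled where edgeR called it and open where it did not, and bars mark medians. All 13 mitochondrial (mt) points lie above 0, between 0.49 and 1.18, whereas nuclear (nuc) points lie on both sides of 0, with NDUFA4L2, COX4I2 and COX6B2 lowest.

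The 13 mitochondrial mRNAs took up 1.70%, 1.40%, 1.47% and 1.81% of all counts in the 2D-primed libraries and 2.52%, 2.47%, 2.67% and 2.98% in the 3D-primed libraries. The groups did not overlap. The 82 nuclear mRNAs took up 0.663%, 0.653%, 0.646% and 0.669% against 0.744%, 0.714%, 0.654% and 0.684%, and here the groups overlapped. There were 2.57, 2.14, 2.27 and 2.71 mitochondrial counts per nuclear count in 2D-primed cells and 3.39, 3.46, 4.09 and 4.36 in 3D-primed cells, again without overlap. In bulk RNA, more RNA per cell cannot be told apart from more cells rich in it, nor more RNA per mitochondrion from more mitochondria.

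**Figure D2:**
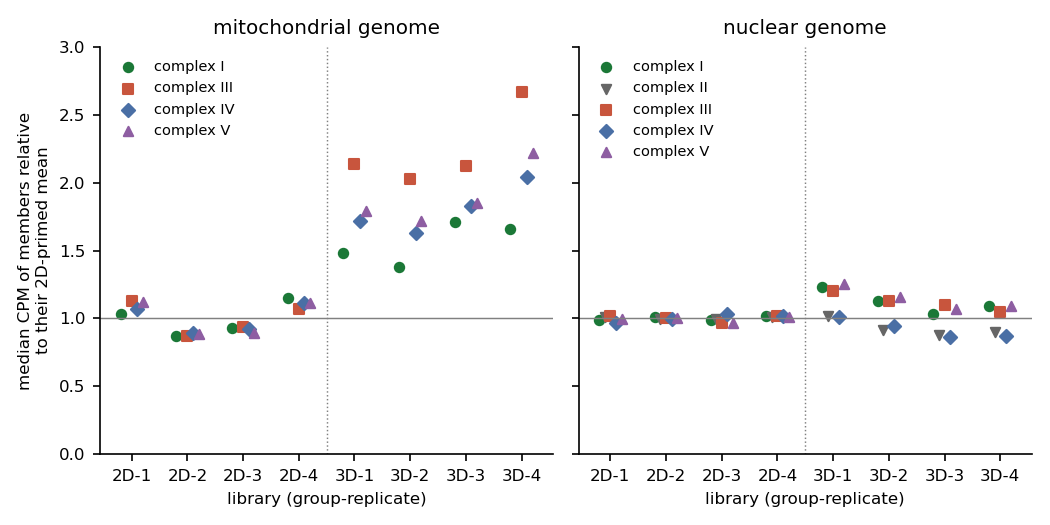
Median CPM of the members of each complex, relative to their 2D-primed mean (vertical axis), in each of the 8 libraries (horizontal axis), for mitochondrial members on the left and nuclear members on the right. Mitochondrial members of the 3D-primed libraries lie between 1.38 and 2.67, and nuclear members between 0.861 and 1.25.

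Per kilobase of transcript, mean levels of mitochondrial mRNAs in 2D-primed cells ran from 10.7 CPM per kb (MT-ND6) to 3446 CPM per kb (MT-CO1), with a median of 1170 CPM per kb. Nuclear mRNAs ran from 0.223 CPM per kb (COX6B2) to 342 CPM per kb (ATP5F1B), with a median of 51.8 CPM per kb. These levels depend on the annotated length of 1 canonical transcript per gene, which long 3′ ends can inflate. Per kilobase of coding sequence the nuclear median was 130 CPM per kb. The mitochondrial mRNAs also varied more between libraries of 1 group. The median coefficient of variation over members averaging 100 counts or more was 11.8% in the 2D-primed and 9.82% in the 3D-primed libraries, against 3.57% and 7.35% for nuclear members.

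The mitochondrial genome encodes 7 core subunits of complex I, which form its proton-pumping membrane arm. MT-ND1 (chrM:3307-4262) was at 994, 885, 915 and 1142 CPM (counts scaled to the TMM-adjusted library size) in 2D-primed libraries 1 to 4 and at 1666, 1722, 1942 and 2029 CPM in the 3D-primed libraries 1 to 4 (log2 fold change 0.90, SE 0.09, edgeR adjusted p = 9.1e-06). MT-ND2 (chrM:4470-5511) was at 871, 714, 806 and 918 against 1445, 1396, 1493 and 1748 CPM (log2 fold change 0.88, SE 0.09, edgeR adjusted p = 1.1e-05). MT-ND3 (chrM:10059-10404) was at 286, 247, 286 and 293 against 539, 513, 501 and 605 CPM (log2 fold change 0.96, SE 0.07, edgeR adjusted p = 1.4e-06). All 3 rose and every 3D-primed library was above every 2D-primed one.

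The other complex I genes that share their strand had smaller log2 fold changes, a difference that was not tested. MT-ND4 (chrM:10760-12137) was at 2873, 2474, 2658 and 3218 against 4041, 3876, 4209 and 4671 CPM (log2 fold change 0.58, SE 0.08, edgeR adjusted p = 0.00013). Its overlapping neighbour MT-ND4L (chrM:10470-10766) was at 403, 304, 328 and 394 against 511, 472, 535 and 595 CPM (log2 fold change 0.56, SE 0.10, edgeR adjusted p = 0.00053). MT-ND5 (chrM:12337-14148) was at 1545, 1331, 1424 and 1817 against 2262, 2080, 2180 and 2303 CPM (log2 fold change 0.53, SE 0.08, edgeR adjusted p = 0.0003). All 3 rose, again without overlap between the groups.

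MT-ND6 (chrM:14149-14673), the only protein-coding gene of the opposite strand, is known for having little or no poly(A) tail, and poly(A) selection preceded sequencing. It was the least abundant mitochondrial mRNA per length, at 6.46, 3.29, 4.88 and 7.89 CPM in the 2D-primed and 6.22, 7.22, 9.64 and 8.62 CPM in the 3D-primed libraries, from 76 to 269 counts. The groups overlapped and it was not called (log2 fold change 0.49, SE 0.24, edgeR adjusted p = 0.093). Single libraries decide its value, since leaving out 2D-primed replicate 4 gave 0.70 (edgeR adjusted p = 0.023) and leaving out 2D-primed replicate 2 gave 0.31 (edgeR adjusted p = 0.19). Whether the quantification used the strand of the reads is not given in the sources used here.

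MT-CYB (chrM:14747-15887), the haem-bearing core of complex III and its only mitochondrial subunit, was among the most raised. It was at 729, 561, 605 and 693 CPM in the 2D-primed and 1386, 1313, 1372 and 1728 CPM in the 3D-primed libraries (log2 fold change 1.16, SE 0.10, edgeR adjusted p = 4.4e-06). The lowest 3D-primed library was far above the highest 2D-primed one.

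In complex IV the 3 mitochondrial core subunits rose by unequal amounts. MT-CO1 (chrM:5904-7445), which holds the oxygen-binding site, was at 5491, 4758, 4917 and 6092 against 7225, 6912, 7883 and 7876 CPM (log2 fold change 0.49, SE 0.08, edgeR adjusted p = 0.00027). MT-CO2 (chrM:7586-8269), which accepts electrons from cytochrome c, was at 1230, 1034, 1071 and 1281 against 1980, 1881, 2111 and 2353 CPM (log2 fold change 0.85, SE 0.09, edgeR adjusted p = 1e-05). MT-CO3 (chrM:9207-9990) was at 1083, 895, 832 and 1062 against 2108, 1974, 2175 and 2533 CPM (log2 fold change 1.18, SE 0.10, edgeR adjusted p = 3.1e-06). None of the 3 overlapped between groups. The count ratio of MT-CO3 to MT-CO1 was 0.197, 0.188, 0.169 and 0.174 in 2D-primed libraries and 0.292, 0.286, 0.276 and 0.322 in the 3D-primed libraries. The ratio of MT-CYB to MT-CO1 ran from 0.114 to 0.133 in the 2D-primed and from 0.174 to 0.219 in the 3D-primed libraries. Neither ratio overlapped between the groups.

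Both mitochondrial subunits of the ATP synthase rose by similar amounts. MT-ATP6 (chrM:8527-9207), part of the proton channel, was at 1085, 889, 894 and 1102 against 1762, 1666, 1821 and 2151 CPM (log2 fold change 0.90, SE 0.10, edgeR adjusted p = 1.6e-05). MT-ATP8 (chrM:8366-8572), the small subunit whose end lies within the shared bases printed above, was at 276, 211, 213 and 269 against 436, 427, 451 and 552 CPM (log2 fold change 0.95, SE 0.11, edgeR adjusted p = 3.1e-05). The count ratio of MT-ATP6 to MT-ATP8 was 3.94 to 4.21 in the 2D-primed and 3.90 to 4.04 in the 3D-primed libraries, and these ranges overlapped. Since the genes overlap, their similar rises are not separate results.

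Chromosome 1 holds near-identical copies of some of these genes, between which short reads can be split. MTATP6P1 (chr1:633696-634376) matched MT-ATP6 at 98.5% of 681 aligned bases and carried 3184, 2787, 2714 and 3322 counts in the 2D-primed and 6304, 4911, 6597 and 7236 counts in the 3D-primed libraries. The copies of MT-ND2, MT-CO1, MT-ND1 and MT-CO2 in the same stretch carried at most 368 counts in any library. With the counts of the copies added to their mitochondrial genes, the number of mitochondrial mRNAs called higher was again 12.

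**Figure D3:**
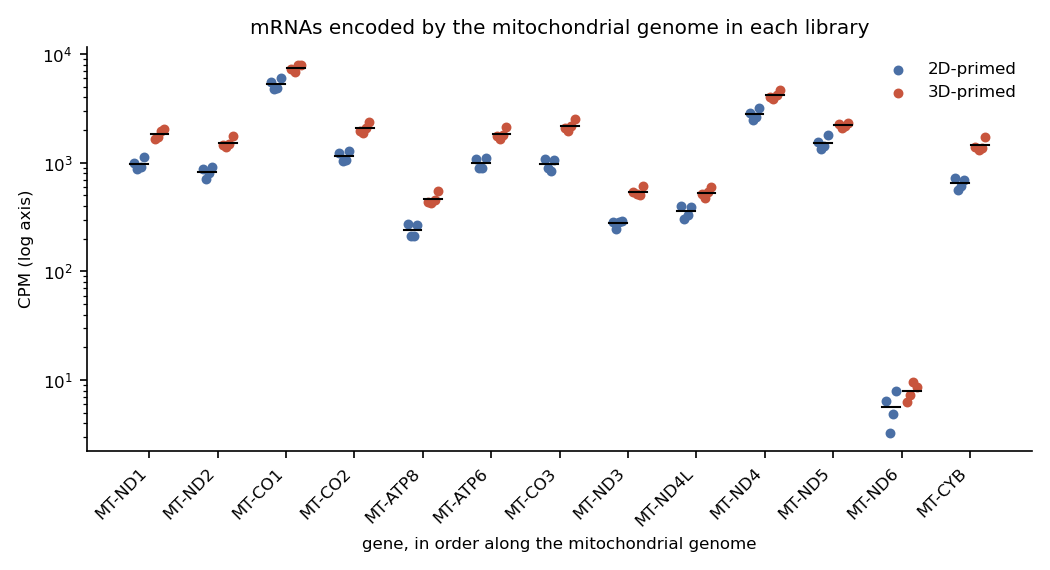
CPM (log axis) of the 13 mitochondrial mRNAs, in order along the genome, in each 2D-primed (blue) and 3D-primed (red) library, with bars at the group means. The groups are apart for every gene except MT-ND6, which also lies lowest, at 3.29 to 9.64 CPM.

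Among the 38 nuclear mRNAs counted in complex I, 18 were called higher in 3D-primed cells, 5 lower and 15 were not called. Their median log2 fold change was 0.18. The share called, 60.5%, was near the 63.9% of all genes tested (32.4% higher and 31.6% lower). The correction for GC content and length gave 16 higher and 8 lower, with a median of 0.08. Of the 28 accessory subunits, which surround the catalytic core, 17 were called higher and 3 lower (median 0.25). Of the 7 nuclear core subunits, which carry the flavin and iron-sulphur clusters, 0 were called higher and 1 lower (median -0.07). That 1 is NDUFS7 (log2 fold change -0.19), whose groups overlapped and whose call was lost in 7 of the 8 fits that left out a library. The difference between core and accessory subunits was not tested.

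NDUFB1 (chr14:92116122-92121917), a small accessory subunit of the membrane arm, changed most among nuclear members that rose. It was at 6.46, 5.96, 6.23 and 6.92 CPM in the 2D-primed and 11.1, 10.8, 10.3 and 10.3 CPM in the 3D-primed libraries (log2 fold change 0.73, SE 0.07, edgeR adjusted p = 9.4e-06). NDUFA13 (chr19:19515736-19529054), also known as GRIM-19, was at 60.3, 65.4, 62.1 and 64.0 against 93.2, 85.1, 80.9 and 81.9 CPM (log2 fold change 0.44, SE 0.05, edgeR adjusted p = 3.2e-05). NDUFA5 (chr7:123536997-123557904) was at 28.9, 28.9, 27.4 and 27.6 against 35.3, 37.3, 34.4 and 36.8 CPM (log2 fold change 0.35, SE 0.04, edgeR adjusted p = 4.5e-05). The groups were apart for all 3. NDUFA11, whose promoter is printed above, rose from 50.8 ± 2.13 to 72.1 ± 6.15 CPM (SD, n = 4; log2 fold change 0.51).

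The accessory subunits called lower were NDUFC1 (log2 fold change -0.32), NDUFS4 (-0.24) and NDUFB4 (-0.22), and the groups were apart for each of them. With the correction NDUFB4 was at -0.35 and NDUFS4 at -0.38, while the accessory subunit NDUFA1, called higher without it (0.20), was not called. NDUFV3 was called higher (0.13), but its groups overlapped and 7 of the 8 fits without 1 library did not call it. The readthrough gene NDUFC2-KCTD14, which shares exons with NDUFC2, had a log2 fold change of 0.01 and was not called. Without 3D-primed replicate 1, the number of nuclear complex I mRNAs called lower was 8.

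Complex II links the citric acid cycle to the chain, and its 4 nuclear subunits diverged. SDHA (chr5:218303-257082), the flavoprotein that oxidises succinate, was at 187, 187, 188 and 190.0 CPM in the 2D-primed and 168, 162, 148 and 159.7 CPM in the 3D-primed libraries (log2 fold change -0.24, SE 0.04, edgeR adjusted p = 0.00059). SDHB, the iron-sulphur subunit, was at 49.7, 50.7, 51.1 and 53.2 against 50.1, 41.4, 43.6 and 43.7 CPM (log2 fold change -0.19, SE 0.06, edgeR adjusted p = 0.012). SDHC (chr1:161314381-161363206), a membrane anchor, was at 107, 104, 99.7 and 104 against 136, 122, 121 and 121 CPM (log2 fold change 0.27, SE 0.05, edgeR adjusted p = 0.00057). The catalytic subunits SDHA and SDHB fell, SDHA without overlap and SDHB with overlap through 3D-primed replicate 1, and the anchor SDHC rose without overlap. The second anchor, SDHD, had a log2 fold change of -0.04 and was not called. With GC content and length corrected for, SDHC moved to 0.13, SDHB to -0.33 and SDHD to -0.23, at which SDHD was called lower.

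Of the 9 nuclear mRNAs of complex III, 5 were called higher, 3 lower and 1 was not called (median log2 fold change 0.19). The share called, 88.9%, stands beside 63.9% of all genes tested (32.4% higher and 31.6% lower). With the correction for GC content and length the median was 0.12. Those that fell were cytochrome c1 and both core proteins. CYC1, which passes electrons on to cytochrome c, was at 129.6, 125, 121 and 131 CPM in the 2D-primed and 94.4, 90.6, 102 and 82.2 CPM in the 3D-primed libraries (log2 fold change -0.46, SE 0.06, edgeR adjusted p = 8.6e-05). UQCRC1 (chr3:48599002-48610976), a core protein on the matrix side, was at 280.3, 289, 287 and 283 against 254, 229, 219 and 217 CPM (log2 fold change -0.31, SE 0.05, edgeR adjusted p = 0.00035). Its partner UQCRC2 (chr16:21953288-21983660) was at 344, 362, 360.1 and 360.1 against 319, 303, 289 and 291 CPM (log2 fold change -0.25, SE 0.04, edgeR adjusted p = 0.00044).

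In all 3 the groups were apart. CYC1 thus moved opposite to MT-CYB, which shares the redox centres of the complex with it. The 5 that rose were UQCR11 (log2 fold change 0.39), UQCR10 (0.28), UQCRH (0.24), the Rieske iron-sulphur protein UQCRFS1 (0.21) and UQCRQ (0.19). The call of UQCRQ, whose groups overlapped, was lost in 6 of the 8 fits without 1 library. The correction for GC content and length ended the call of UQCRQ (0.05), called UQCRB higher (0.18), and gave smaller values for UQCR10 (0.15), UQCRH (0.13) and UQCRFS1 (0.12) and a larger one for UQCRC2 (-0.41).

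Complex IV had the smallest share of nuclear mRNAs called higher among the 5 complexes. Of 13, 1 was called higher, 5 lower and 7 were not called, with a median log2 fold change of -0.13, while its 3 mitochondrial subunits rose. Of the 5, COX6B2 passed the filter on low counts only through 2D-primed libraries. Groups were apart for 1 gene, COX4I2, against 59.8% of all genes tested. The share of these 13 called, 46.2%, stands beside 63.9% of all genes tested (32.4% higher and 31.6% lower). COX6A1 (chr12:120438090-120440737) was at 117, 122, 126 and 126 against 118, 105, 105 and 98.5 CPM (log2 fold change -0.20, SE 0.06, edgeR adjusted p = 0.0085). COX7B was at 38.8, 35.7, 38.6 and 37.9 against 36.6, 32.8, 31.2 and 31.1 CPM (log2 fold change -0.20, SE 0.06, edgeR adjusted p = 0.012), and COX8A at 63.8, 70.2, 61.4 and 67.6 against 62.9, 56.7, 51.3 and 57.0 CPM (log2 fold change -0.21, SE 0.06, edgeR adjusted p = 0.017). All 3 were called lower, but 3D-primed replicate 1 lay within the range of the 2D-primed libraries.

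COX6B1 (log2 fold change -0.13, SE 0.05, edgeR adjusted p = 0.058) and COX7A2 (log2 fold change -0.14, SE 0.08, edgeR adjusted p = 0.14) were not called. COX6B1 was at 77.9, 82.4, 82.2 and 79.6 against 80.0, 76.7, 69.4 and 68.2 CPM, and COX7A2 at 77.5, 73.2, 83.4 and 77.9 against 81.3, 73.0, 66.5 and 62.3 CPM. In both, 3D-primed replicate 1 was the highest of its group, and without it both were called (adjusted p = 0.010 and 0.014 in edgeR's quasi-likelihood test). COX6B1 was also called without 3D-primed replicate 2 (edgeR adjusted p = 0.047). Leaving out 3D-primed replicate 1 gave 8 nuclear complex IV mRNAs called lower. The correction for GC content and length gave 10 lower and 0 higher (median -0.24), with COX7B at -0.34. Among these 10 were COX7A2 (-0.24, edgeR adjusted p = 0.0094) and COX6B1 (-0.20, edgeR adjusted p = 0.0028). The 1 called higher, COX7A2L, a factor of supercomplex assembly (log2 fold change 0.13), had overlapping groups and lost its call in 5 of the 8 fits without 1 library.

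Some complex IV subunits exist as pairs encoded by separate genes. COX4I1 is the common form of the regulatory subunit 4, and COX4I2 (chr20:31637912-31645006) is the form known for its induction by low oxygen. COX4I1 was at 190.1, 200.4, 213 and 205 against 217, 211, 200.1 and 185 CPM (log2 fold change 0.01, SE 0.06, edgeR adjusted p = 0.92) and was not called. COX4I2 was at 1.05, 1.38, 1.55 and 1.27 against 0.377, 0.310, 0.932 and 0.357 CPM, or 7 to 38 counts per library (log2 fold change -1.38, SE 0.35, edgeR adjusted p = 0.0057). COX4I2 fell without overlap between the groups, and its count ratio to COX4I1 was 0.00554 to 0.00725 in the 2D-primed and 0.00147 to 0.00466 in the 3D-primed libraries.

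NDUFA4 and NDUFA4L2 are counted in complex I by their symbols, although NDUFA4 is known as a subunit of complex IV and NDUFA4L2 as its hypoxia-induced relative. NDUFA4 was at 76.6, 76.7, 76.3 and 74.9 against 92.7, 88.3, 80.2 and 82.6 CPM (log2 fold change 0.17, SE 0.05, edgeR adjusted p = 0.0087). NDUFA4L2 (chr12:57234903-57240715) was at 5.09, 4.58, 4.64 and 3.76 against 1.17, 1.68, 2.26 and 0.675 CPM, or 17 to 114 counts (log2 fold change -1.64, SE 0.29, edgeR adjusted p = 0.00066). NDUFA4 was called higher and NDUFA4L2 fell, both without overlap. With the correction, NDUFA4 was at -0.01 (edgeR adjusted p = 0.82) and lost its call. The count ratio of NDUFA4L2 to NDUFA4 was 0.0664, 0.0598, 0.0608 and 0.0501 in the 2D-primed and 0.0126, 0.0190, 0.0282 and 0.00817 in the 3D-primed libraries. Counted with complex IV, they bring its nuclear mRNAs to 2 called higher and 6 lower of 15. With the correction the 2 called higher, NDUFA4 and COX7A2L, were not called, while NDUFA4L2 was still called lower (-1.67).

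COX6B2, known for its expression in testis, was called lower (log2 fold change -1.80, SE 0.66, edgeR adjusted p = 0.034) at 0 to 13 counts per library. It passed the filter only through 2D-primed replicates 3 and 4, with 13 and 10 counts, so that a member kept in this way had to be higher there and its call is no support for a difference. It was at 0.275, 0.173, 0.529 and 0.422 against 0, 0.0886, 0.179 and 0.119 CPM, the groups overlapped, and the call was lost without 3D-primed replicate 2 or 4. It did not pass the filter in 2 of the 8 fits without 1 library. The tissue-restricted forms COX6A2, COX7A1, COX7B2 and COX8C had 0 counts in every library, and UQCRHL and ATP5MGL had at most 3 and 1. NDUFA3 had 1 to 6 counts. The files also hold 3055 identifiers that the annotation did not match, and whether reads of NDUFA3 were assigned to one of them was not tested.

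**Figure D4:**
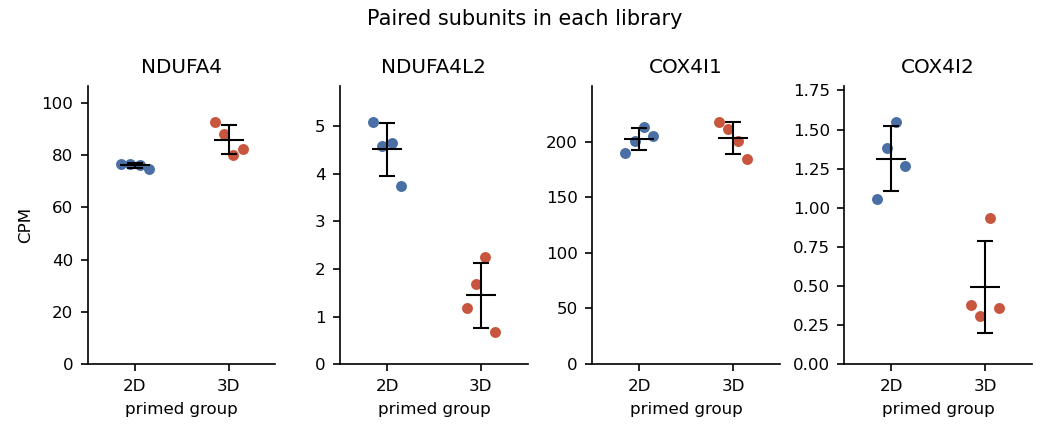
CPM (vertical axes, each starting at 0) of the paired subunits NDUFA4 and NDUFA4L2 and of COX4I1 and COX4I2 in each library, with mean and SD of 4 libraries per group. NDUFA4L2 and COX4I2 are low in all libraries and lower in every 3D-primed library, whereas COX4I1 overlaps between the groups.

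Of the 18 nuclear mRNAs of the ATP synthase, 11 were called higher, 2 lower and 5 were not called. Their median log2 fold change was 0.19. The share called, 72.2%, stands beside 63.9% of all genes tested (32.4% higher and 31.6% lower). The correction for GC content and length gave 8 higher and 2 lower, with a median of 0.10. ATP5F1A (chr18:46080248-46104334), the alpha subunit of the F1 head, was at 456, 467, 434 and 452 CPM in the 2D-primed and 577, 546, 512 and 529 CPM in the 3D-primed libraries (log2 fold change 0.26, SE 0.05, edgeR adjusted p = 0.00054). Its catalytic partner ATP5F1B, the most abundant nuclear member per kilobase of transcript, had a log2 fold change of 0.09 and was not called. Of the 5 subunits of the head, 2 were called higher (ATP5F1A and ATP5F1C) and 0 lower, and the correction ended the call of ATP5F1C (0.06).

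Of the 5 small membrane subunits of the ATP synthase, 4 were called higher and 0 lower. ATP5MF (chr7:99448475-99466186) was at 54.6, 50.5, 50.5 and 54.3 against 78.8, 73.9, 63.3 and 70.6 CPM (log2 fold change 0.45, SE 0.06, edgeR adjusted p = 0.00015). Its readthrough gene ATP5MF-PTCD1, with which it shares exons, was not called. ATP5MJ (chr14:103912288-103928269) was at 30.5, 32.3, 29.9 and 31.3 against 43.2, 39.3, 36.5 and 39.3 CPM (log2 fold change 0.35, SE 0.05, edgeR adjusted p = 0.00023). The groups were apart for ATP5MF and ATP5MJ, and with the correction ATP5MJ was at 0.23. Of the 4 subunits of the peripheral stalk, which holds the head against rotation, ATP5PF (log2 fold change 0.30), ATP5PD (0.20) and ATP5PB (0.13) were called higher and ATP5PO (-0.23) lower. The call of ATP5PB was lost in 4 of the 8 fits without 1 library. The correction ended the calls of ATP5PD (0.08) and ATP5PB (-0.02), and put ATP5PF at 0.17 and ATP5PO at -0.35.

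The c ring, which turns as protons pass, is built from 1 mature protein encoded by 3 genes. ATP5MC1 was at 36.3, 36.9, 33.8 and 37.8 against 49.2, 44.9, 38.3 and 41.1 CPM (log2 fold change 0.26, SE 0.07, edgeR adjusted p = 0.011). ATP5MC2 was at 108, 111, 103 and 109.7 against 107, 99.9, 92.7 and 96.6 CPM (log2 fold change -0.12, SE 0.05, edgeR adjusted p = 0.048). ATP5MC3 was at 231, 233, 228 and 245 against 291, 269, 237 and 248 CPM (log2 fold change 0.16, SE 0.06, edgeR adjusted p = 0.046). ATP5MC1 rose without overlap. ATP5MC2 was called lower and ATP5MC3 higher, but their groups overlapped, and the calls were lost in 6 and 5 of the 8 fits without 1 library. The correction put ATP5MC2 at -0.20 and ATP5MC3 at -0.01, which ended the call of ATP5MC3.

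Nuclear members were also described by the length of their transcripts. Of the 47 with a transcript under 1000 bases, 23 were called higher and 10 lower (median log2 fold change 0.20). Of the 35 longer ones, 13 were called higher and 7 lower (median 0.11). Among all genes tested under 1000 bases the shares were 30.6% higher and 20.7% lower, with a median of 0.09. Among protein-coding genes of that length they were 37.3% and 21.2%, with a median of 0.13, and among all genes of 1000 bases or more 33.4% and 33.1%. The correction for GC content and length gave 21 higher and 15 lower among the 47 short members (median 0.10), and 9 higher and 11 lower among the 35 longer ones. Across the 82 nuclear members, Spearman's rho between transcript length and log2 fold change was -0.30, as a description over genes that share 8 libraries. Across 13293 genes with a length it was -0.15. With the correction, rho was -0.22 across the nuclear members and -0.01 across the 13293 genes. The part of transcript length in the nuclear changes was not tested beyond this correction.

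**Figure D5:**
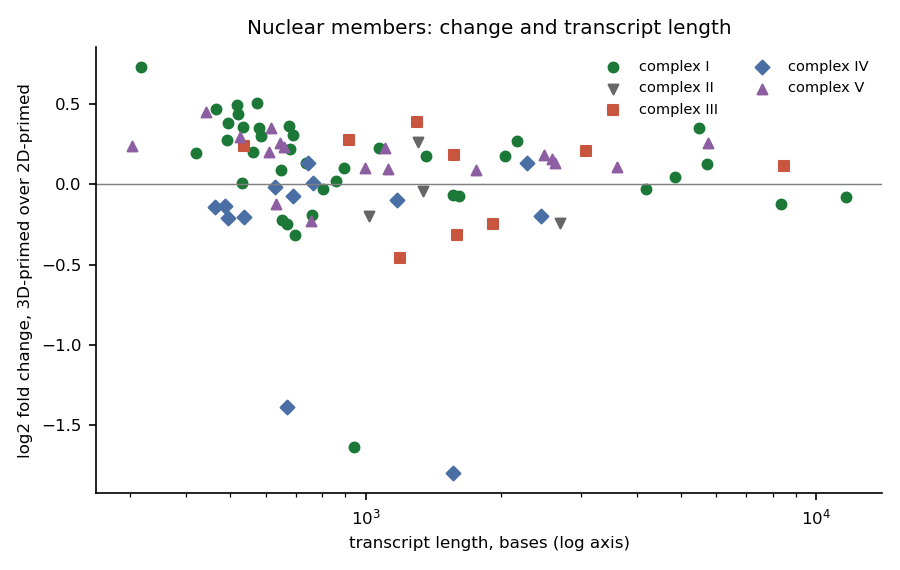
Log2 fold change (3D-primed over 2D-primed, vertical axis) of the 82 nuclear members against transcript length (bases, log axis), by complex. Most members under 1000 bases lie above 0, while complex IV members of the same length lie near or below it.

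Genes that serve the chain were read from lists of general knowledge. Their counts of calls stand beside 32.4% called higher and 31.6% lower among all genes tested. Of 60 assembly factors, 33 were called higher and 6 lower (median log2 fold change 0.25). ATPAF1, which assembles the F1 head, rose from 40.4 ± 1.60 to 62.2 ± 2.49 CPM (SD, n = 4; log2 fold change 0.62). ATP5IF1, the inhibitor of ATP hydrolysis by the synthase, rose from 32.2 ± 1.46 to 52.5 ± 3.05 CPM (0.70), and COA5, a complex IV assembly factor, from 14.9 ± 0.845 to 26.4 ± 1.89 CPM (0.83). Among those that fell were COX10, which makes the haem of complex IV (-0.57), and the copper chaperone COX17 (-0.33), both picked here after their values were seen. Groups were apart for each of the 5. With the correction for GC content and length, 10 assembly factors were called lower.

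Of 21 genes of mitochondrial DNA replication and transcription, 10 were called higher and 4 lower (median log2 fold change 0.13). TFAM, which packages mitochondrial DNA and starts its transcription, rose from 54.8 ± 3.11 to 81.4 ± 2.51 CPM (0.57). TFB1M, an rRNA methyltransferase, rose from 23.2 ± 1.64 to 37.4 ± 1.79 CPM (0.69), and MTERF2, of the mitochondrial termination factor family, from 3.77 ± 0.397 to 6.98 ± 0.672 CPM (0.89). The mitochondrial RNA polymerase POLRMT (-0.41) and the DNA polymerase POLG (-0.44), both picked after their values were seen, fell. The correction gave -0.20 for POLRMT and -0.28 for POLG.

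Of 20 genes of mitochondrial RNA processing and stability, 13 were called higher and 3 lower (median log2 fold change 0.18). HSD17B10, a subunit of mitochondrial RNase P, rose from 18.5 ± 1.14 to 28.7 ± 2.10 CPM (0.64). TACO1, an activator of MT-CO1 translation, rose from 24.8 ± 1.17 to 37.1 ± 3.17 CPM (0.58). LRPPRC, which stabilises mitochondrial mRNAs, rose from 480.0 ± 10.8 to 562 ± 8.87 CPM (0.23).

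Of 14 nuclear regulators of respiratory genes, 2 were called higher and 5 lower (median log2 fold change -0.07). The correction gave 3 higher and 7 lower. Among all genes tested, 32.4% were called higher and 31.6% lower. YY1 fell from 126 ± 2.03 to 93.6 ± 4.95 CPM (-0.43) and SP1 from 78.7 ± 4.83 to 52.5 ± 4.52 CPM (-0.58), while TFE3, a regulator of lysosomal genes, rose from 29.1 ± 1.76 to 37.4 ± 1.55 CPM (0.36). NRF1 (-0.14) and the coactivator PPARGC1A (0.11) were not called. With the correction NRF1 was called lower (-0.15).

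Of 21 electron carriers and genes of ubiquinone synthesis, 9 were called higher and 3 lower (median log2 fold change 0.15). ETFDH, which passes electrons from fatty acid oxidation to ubiquinone, rose from 9.39 ± 0.594 to 16.8 ± 1.19 CPM (0.84). ETFB, a subunit of its electron donor, fell from 729 ± 66.0 to 373 ± 24.1 CPM (-0.97). ETFA, the other subunit of that donor, was not called (-0.06), but was called lower with the correction (-0.20). SQOR, which feeds electrons from sulphide, fell from 25.8 ± 3.11 to 12.7 ± 1.05 CPM (-1.02). Cytochrome c (CYCS, 0.11) was not called. With the correction the list split into 7 higher and 6 lower, with a median of 0.08.

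Of 30 genes of protein import and of the cristae-shaping MICOS complex, 19 were called higher and 3 lower (median log2 fold change 0.26). The matrix chaperone HSPA9 rose from 333 ± 2.70 to 481 ± 10.4 CPM (0.53), and its partners at the import motor, TIMM44 (0.58) and DNAJC19 (0.94), also rose. Of 11 nucleotide, phosphate and outer membrane carriers, 6 were called higher and 5 lower (median 0.12). The outer membrane channels VDAC1 (-0.70) and VDAC2 (-0.68) fell, and the ATP-Mg/phosphate carrier SLC25A23 rose (0.57). The channel VDAC3 was called higher (0.12), but not with the correction (-0.05). With the correction, 5 genes of the import list were called lower, and the median of the carriers was -0.05.

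All 13 hypoxia targets were called lower in 3D-primed cells, with a median log2 fold change of -1.36, in the direction of NDUFA4L2 and COX4I2. With the correction for GC content and length, 12 of them were. CA9, a carbonic anhydrase, fell from 254 ± 20.8 to 16.9 ± 6.61 CPM (-3.90). The growth factor VEGFA fell from 608 ± 35.4 to 176 ± 30.9 CPM (-1.79), and ADM, adrenomedullin, from 133 ± 18.9 to 14.8 ± 5.40 CPM (-3.17). The summed level of all 13 targets was 4040, 4587, 4950 and 4716 CPM in the 2D-primed and 1565, 1624, 2052 and 1238 CPM in the 3D-primed libraries. NDRG1 was the most abundant of the 13. Oxygen levels were not analysed here, and the part of low oxygen in either pattern was not tested.

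The liver identity of the line was visible in all libraries. Of 9 hepatocyte markers, 7 were called higher and 2 lower (median log2 fold change 0.69), with a summed level of 72437, 76684, 70499 and 74889 CPM in the 2D-primed and 111839, 99542, 105984 and 102116 CPM in the 3D-primed libraries, and ALB was the most abundant. TMM scaling, used for all fold changes, limits the weight of such abundant genes. Of the markers of other cell types, only THY1 (fibroblasts) and CD3E (T cells) had 0 counts throughout, and PTPRC (leukocytes) was at most at 0.0916 CPM. Of 8 fibroblast markers, 2 passed the filter (1 called higher and 1 lower), with a sum of at most 18.1 CPM carried by PDGFRB. Of 5 endothelial markers, 3 passed (1 higher, 1 lower), with a sum of at most 7.76 CPM carried by CDH5. Of 6 leukocyte markers, 4 passed (2 higher, 1 lower), and their sum of 2197 to 3029 CPM was carried by LYZ.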

How the data were processed

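The authors deposited 1 table of estimated counts per gene for each of 8 libraries, made with Salmon on Ensembl human cDNA (GRCh38) and summed to genes with tximport. The deposited counts are whole numbers, not scaled to a common depth, and the tximport setting is not given in the sources used here. The totals above limit the precision of low genes most. Of the identifiers, 34977 matched GENCODE 44 and carried 97.5% of counts. Genes with 10 counts or more in 2 or more libraries were kept, scaled by TMM and compared with edgeR 4.0.16 (glmQLFit and glmQLFTest, R 4.3.3), with p adjusted over all 13943 genes by the Benjamini-Hochberg method. The SE of a log2 fold change was taken from its size and the F statistic. CPM are counts divided by the total of the kept genes times the TMM factor of the library. With 4 libraries per group, the smallest p an exact permutation test allows is 0.0286.

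Members, gene lists and motifs were chosen with earlier results of these data known. Named in full were the 13 mitochondrial mRNAs, the 3 members of each complex with the smallest p, and paired isoforms that passed the filter. From each list other than the cell type markers, the 3 genes with the smallest p were named. Of those markers, the defining or most abundant ones were named. The lists were assembly factors, mitochondrial DNA replication and transcription, mitochondrial RNA processing, nuclear regulators, electron carriers, protein import and MICOS, carriers, hypoxia targets, and hepatocyte, fibroblast, endothelial and leukocyte markers. Within groups, chi-square per degree of freedom between libraries ran from 6.19 to 17.0, so no library was counted as a repeat of another. The pipeline was tested on simulated data in which far fewer genes changed than were called here. There edgeR called 66.7% of genes changed by a log2 of 0.5 in the right direction, 88.1% at 1 and 98.5% at 2. Of its calls, 6.67% were unchanged genes. Alternatives were DESeq2 1.42.0, limma-voom (limma 3.58.1), other scalings and filters, a correction for GC content and length, the replicate number as a block, leaving out each library, and counts of nuclear copies added, the last chosen after seeing the data.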

Additional observations from a re-analysis of the deposited data

Results flagged for a closer look

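Among 80 groups of 4 libraries, those of the 38 members given in full and of the summed shares of each genome, 4 libraries stood apart from the rest of their group by more than Dixon's critical value for the gap to the nearest library, where chance gives about 1 group in 20. MT-ND3 was lowest in 2D-primed replicate 2, at 247 CPM. SDHC was highest in 3D-primed replicate 1, at 136 CPM. UQCRC2 was lowest in 2D-primed replicate 1, at 344 CPM. COX4I2 was highest in 3D-primed replicate 3, at 0.932 CPM. The direction of each of these 4 genes and its call were the same in every fit that left out 1 library.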

How the results depend on the processing

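For 62 named genes under 20 alternatives, 1196 of 1235 values kept direction and call, 20 lost the call with their sign kept, 10 gained it and 9 changed sign, of which 2 (NDUFA4 and ATP5MC3) also lost the call. The 12 mitochondrial mRNAs called higher kept their calls under every alternative. With the correction for GC content and length, 26 nuclear members and 10 of complex IV were called lower, and medians were 0.0094 for all nuclear members, 0.0818 for complex I, -0.25 for II, 0.12 for III, -0.24 for IV and 0.10 for V. That correction also turned NDUFA4 (-0.0114) and ATP5MC3 (-0.0091). COX4I1, which was not called, was at -0.0032 with DESeq2, -0.0031 with median-of-ratios factors, -0.0003 with filterByExpr and -0.0830 with the correction. The cause was not tested. Without 1 library each, COX4I1 was at -0.0325 to 0.0510, mitochondrial members called higher ranged from 12 to 13 and nuclear ones from 31 to 42 higher and 14 to 23 lower. Of the 65 members called, 57 kept the call in all of these fits, and 18 of 30 uncalled members gained one in some. Total counts gave 41 nuclear members higher and 15 lower, upper-quartile factors 45 and 15. Deviations of libraries with the same replicate number correlated at -0.0439 to 0.088, and those with unlike numbers at -0.12 to 0.136. No shift shared by number was thus visible, and how libraries were numbered is not given in the sources used here. With the replicate block 12 mitochondrial and 35 nuclear members were called higher, 18 nuclear lower. COX6B1 was called lower in 5 of the 12 other fits to all libraries, with an adjusted p of 0.039 in DESeq2, 0.045 with median-of-ratios factors, 0.043 with filterByExpr, 0.039 with 10 counts in all libraries and 0.0028 with the correction. Depth limits members with few counts, such as COX6B2 at 0 to 13.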
